A study of Mus musculus with 8 samples.

Results

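The transcripts of 10 mouse genes of the ATF4 stress response were followed in ASZ001 cells: Atf4, Atf5, Ddit3, Ddit4, Trib3, Chac1, Sesn2, Fgf21, Gdf15 and Ppp1r15a. They were taken by symbol from a table of 24883 genes, and all 10 were listed in it. ASZ001 is a cell line from a mouse basal cell carcinoma, and all cells carried a vector switched on by doxycycline, which every group received for 24 h. The c-Fos cells, whose vector held c-FOS, were then kept for 6 h with afatinib at 5 µM, with UO126 at 10 µM or with the vehicle DMSO. The fourth group carried the empty vector, and its label names doxycycline alone and no vehicle. Each of the 4 groups had 2 libraries. Afatinib inhibits kinases of the EGFR family at the cell surface, and UO126 inhibits the kinases MEK1 and MEK2 further down the same route. Inhibitors were given only to c-Fos cells, the work rests on 1 cell line, and the species of the c-FOS in the vector is not stated in what was used here.

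The integrated stress response starts when a stress-sensing kinase phosphorylates the translation factor eIF2. General protein synthesis then slows, while the messenger RNA of the transcription factor ATF4 is translated more. ATF4 binds C/EBP-ATF response elements together with partner factors and switches on genes of amino acid supply, of redox balance and of feedback on the response itself. Much of its control is therefore at translation, which messenger RNA counts do not measure. The 10 genes span the layers of this response. Atf4, Atf5 and Ddit3 (CHOP) encode bZIP transcription factors. Trib3 encodes a pseudokinase that binds CHOP and the kinase AKT, and Ppp1r15a (GADD34) encodes the subunit that directs a phosphatase to eIF2 and so ends the response. Chac1 encodes an enzyme that degrades glutathione. Sesn2 (sestrin 2) and Ddit4 (REDD1) encode inhibitors of the growth kinase mTORC1. Fgf21 and Gdf15 encode secreted hormones that report cell stress to other tissues.

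The promoters of 5 of the genes are shown because each holds a motif searched for. The windows reach from 250 bases before the RefSeq transcript start to 50 bases after it (GRCm38.p6), and the sequences are given on the strand of the gene. Capitals mark the motif. Trib3 lies at chr2:152344011-152344310 on the minus strand, Chac1 at chr2:119350992-119351291 on the plus strand and Fgf21 at chr7:45615441-45615740 on the minus strand. Ddit3 lies at chr10:127290543-127290842 on the plus strand and Ppp1r15a at chr7:45526219-45526518 on the minus strand.
Trib3: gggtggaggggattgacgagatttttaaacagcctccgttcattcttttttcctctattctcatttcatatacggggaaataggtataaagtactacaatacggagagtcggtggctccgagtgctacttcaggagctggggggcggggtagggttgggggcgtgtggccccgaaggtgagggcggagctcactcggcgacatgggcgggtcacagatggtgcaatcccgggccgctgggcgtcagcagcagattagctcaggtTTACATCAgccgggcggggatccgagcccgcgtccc
Chac1: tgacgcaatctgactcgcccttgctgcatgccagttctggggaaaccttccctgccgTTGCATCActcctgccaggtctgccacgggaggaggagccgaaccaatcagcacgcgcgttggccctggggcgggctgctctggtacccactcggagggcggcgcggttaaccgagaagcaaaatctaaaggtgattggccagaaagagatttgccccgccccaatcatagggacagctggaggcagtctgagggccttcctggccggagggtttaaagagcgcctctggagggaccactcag
Fgf21: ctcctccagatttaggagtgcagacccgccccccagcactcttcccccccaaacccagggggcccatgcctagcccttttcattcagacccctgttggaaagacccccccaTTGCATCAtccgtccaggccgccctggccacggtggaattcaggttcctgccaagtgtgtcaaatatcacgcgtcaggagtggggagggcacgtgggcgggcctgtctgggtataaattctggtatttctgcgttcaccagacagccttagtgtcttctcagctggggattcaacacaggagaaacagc
Ddit3: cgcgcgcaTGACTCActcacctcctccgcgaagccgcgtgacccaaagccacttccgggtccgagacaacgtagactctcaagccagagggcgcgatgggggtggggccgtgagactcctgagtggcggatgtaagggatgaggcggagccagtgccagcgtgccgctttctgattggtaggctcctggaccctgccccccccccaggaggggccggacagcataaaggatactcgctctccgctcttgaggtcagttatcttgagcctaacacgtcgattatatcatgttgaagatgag
Ppp1r15a: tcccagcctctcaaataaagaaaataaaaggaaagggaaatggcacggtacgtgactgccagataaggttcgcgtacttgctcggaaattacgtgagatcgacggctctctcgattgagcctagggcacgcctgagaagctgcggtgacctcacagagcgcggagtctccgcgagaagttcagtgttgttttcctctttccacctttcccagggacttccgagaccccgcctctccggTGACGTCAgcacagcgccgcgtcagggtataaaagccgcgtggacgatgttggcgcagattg

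The core of the C/EBP-ATF response element was searched for as TGATGNAA on both strands. Chac1 and Fgf21 hold it as TTGCATCA on the opposite strand, beginning 193 bases and 139 bases before the start. Trib3 holds it as TTACATCA, beginning at base 15 of the transcript. The core was found in the windows of 3 of the 10 genes and in 3.97% of all 32851 windows of that length. The cyclic AMP response element TGACGTCA was found in Ppp1r15a, 12 bases before the start, and in 1.79% of all windows. The AP-1 site TGAGTCA, the kind of site that c-Fos with a Jun partner binds, was found in Ddit3 as TGACTCA, 242 bases before the start, and in 5.2% of all windows. The ER stress element, bound by ATF6, was found in no window of the 10 genes and in 0.119% of all windows. None of these matches was tested for binding, and elements outside the windows were not searched.

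Total counts lay between 17901974 and 23126048 per library. Fos, the induced gene, stood between 813 and 1163 CPM in the c-Fos libraries, against 40.6 and 50.5 CPM in the empty-vector libraries. Of 11 keratinocyte markers, all were counted in every library, with a summed level of 20269 to 24373 CPM. Of the genes listed for other cell types, only Thy1, Lum, Kdr, Tyrobp, Cd3e and Tyr had 0 counts in all 8 libraries. The other genes of these lists were counted in some or all libraries, with Pecam1 at 55.3 to 70.9 CPM and Mitf at up to 53.9 CPM. Summed CPM of the fibroblast list was 7.10 to 7.16 with afatinib, 9.38 to 10.7 with UO126, 8.22 to 9.09 with DMSO and 5.02 to 5.29 with the empty vector. The leukocyte list summed to 8.57 to 9.06, 8.04 to 9.46, 6.14 to 6.80 and 5.39 to 6.19 CPM in the same order of groups. The endothelial list, mainly Pecam1 and Flt1, summed to 146 to 147, 138 to 143, 153 to 168 and 101 to 110 CPM. The melanocyte list, mainly Mitf, summed to 40.6 to 45.4, 53.1 to 65.2, 44.2 to 47.6 and 52.1 to 60.9 CPM. What part these differences have in the results was not tested. Whether the 2 libraries of a group were grown apart is not stated, so the p-values reflect spread that may be technical. In these bulk samples fewer cells with a transcript and less of it per cell cannot be told apart.

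Levels are CPM, read counts normalised to library sizes that were scaled with edgeR's TMM factors. A gene was called under an adjusted p of 0.05 in edgeR's quasi-likelihood test with Benjamini-Hochberg adjustment over all 12879 genes tested. Errors of levels are SD with n = 2 and errors of log2 fold changes are SE. Of the 10 genes 9 had enough counts to be tested. The exception was Gdf15. Fgf21 was low without inhibitor, and it passed the filter also when only the DMSO and empty-vector libraries were used.

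**Figure D1:**
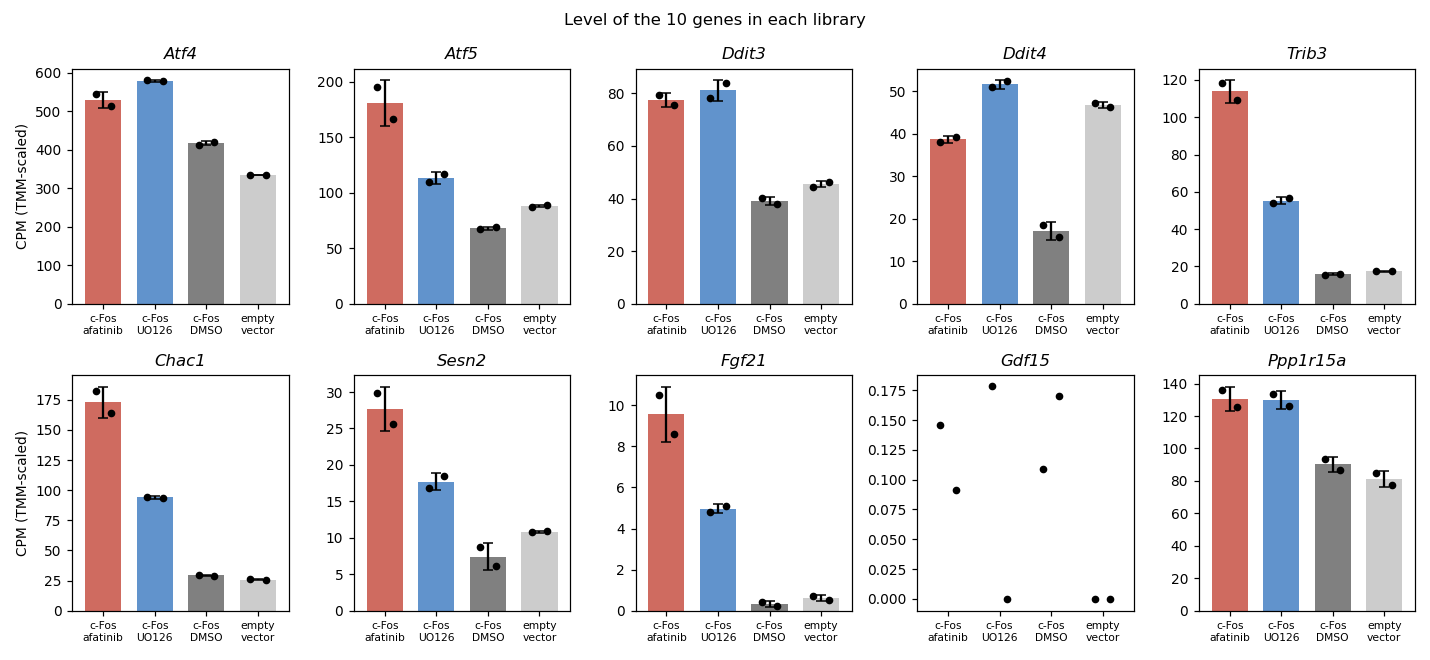
Level of each of the 10 genes in CPM (linear axis, from 0, one scale per gene) in c-Fos cells with afatinib, UO126 or DMSO and in empty-vector cells. Bars are means, error bars SD (n = 2) and dots single libraries. Gdf15 is drawn as dots alone, because it is at most 0.179 CPM. The afatinib and UO126 bars are taller than the DMSO bar for every gene drawn with bars.

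The comparison of afatinib with DMSO asks which of the genes differed after 6 h with the drug in c-Fos cells. Kinase activity was not measured in these libraries, so effects of a drug through its named targets and through others cannot be told apart. The 9 genes tested were all called higher with afatinib, from Atf4 at 1.27-fold to Fgf21 at 28.2-fold. Among all genes tested 21.2% were called higher and 42.7% in either direction. The genes were chosen with earlier results of these data known, so their counts in each comparison are not independent support. The median log2 fold change was 1.41 over the 9 genes and 0.00 over all genes.

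Trib3 stood at 118 and 109 CPM with afatinib, against 15.6 and 16.1 CPM with DMSO. Its log2 fold change of 2.84 ± 0.079 (edgeR adjusted p = 1.1e-10) ranked 9 of 12879 from the highest. Chac1 stood at 182 and 164 CPM with afatinib, against 29.7 and 29.2 CPM with DMSO, and rose by 2.55 ± 0.074 (edgeR adjusted p = 1.1e-10), at rank 14. Both genes thus sat among the strongest rises in the library comparison. Both also carry the response element core in the windows printed above, and its part in the rises was not tested. The hormone gene Fgf21 had 215.5 and 187.5 counts with afatinib, against 8 and 3.5 counts with DMSO. Its log2 fold change of 4.82 ± 0.27 was the second highest of all genes tested (rank 2, edgeR adjusted p = 2.1e-08). The level it reached was still low, at 9.57 ± 1.3 CPM with afatinib and 0.331 ± 0.15 CPM with DMSO.

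Of the mTORC1 inhibitor genes, Sesn2 stood at 29.8 and 25.6 CPM with afatinib, against 8.76 and 6.08 CPM with DMSO (log2 fold change 1.90 ± 0.14, edgeR adjusted p = 4.2e-07). Ddit4 stood at 38.1 and 39.3 CPM with afatinib, against 18.6 and 15.6 CPM with DMSO (1.17 ± 0.090, edgeR adjusted p = 3.4e-07). Neither gene had overlapping libraries between the groups, and the same held for every other tested gene of the set. Groups of 2 libraries can give this without a difference, and its share among all genes was not counted.

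The transcription factor genes rose by different amounts. Atf5 stood at 196 and 166 CPM with afatinib, against 66.9 and 68.9 CPM with DMSO (1.41 ± 0.080, edgeR adjusted p = 2.4e-08). Ddit3 stood at 79.4 and 75.4 CPM with afatinib, against 40.1 and 38.1 CPM with DMSO (0.99 ± 0.072, edgeR adjusted p = 2.3e-07). Atf4 itself had the smallest rise of the 9 genes, with 544 and 515 CPM with afatinib and 413 and 421 CPM with DMSO (0.34 ± 0.056, edgeR adjusted p = 2.8e-04). Its rank was 2518 of 12879, so many genes outside the response rose by more. The phosphatase subunit gene Ppp1r15a stood at 136 and 126 CPM with afatinib, against 93.3 and 86.9 CPM with DMSO (0.54 ± 0.073, edgeR adjusted p = 6.2e-05).

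Gdf15 was counted too rarely to be tested. It had 3 and 2.5 counts with afatinib, 4 and 0 with UO126, 2 and 3 with DMSO and 0 and 0 with the empty vector. A count of 0 allows up to 0.130 and 0.146 CPM in the empty-vector libraries, for counting error only. Gdf15 thus stayed at 4 counts or fewer in every library, at a depth where Fgf21 reached 215.5 and 187.5 counts with afatinib. Differences within so few counts could not be detected, and no fold change is given.

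The comparison of UO126 with DMSO asks the same of the MEK1 and MEK2 inhibitor. The same 9 genes were tested, and all 9 were called higher with UO126. Among all genes tested 13.9% were called higher and 28.6% in either direction. The median log2 fold change was 1.25 over the 9 genes and 0.00 over all genes. Both inhibitor comparisons use the DMSO libraries, so their agreement in direction is not independent. Fos, the induced gene, stood lower with UO126 (813 and 875 CPM) than with DMSO (1163 and 1120 CPM), and its part in these results was not tested.

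Fgf21 had 107.5 and 111 counts with UO126, against 8 and 3.5 counts with DMSO (log2 fold change 3.87 ± 0.30, edgeR adjusted p = 9.5e-07), at rank 3 of 12879. Trib3 stood at 54.1 and 56.5 CPM with UO126, against 15.6 and 16.1 CPM with DMSO (1.80 ± 0.080, edgeR adjusted p = 1.9e-08). Chac1 stood at 94.7 and 93.3 CPM with UO126, against 29.7 and 29.2 CPM with DMSO (1.67 ± 0.074, edgeR adjusted p = 1.9e-08). Their ranks of 40 for Trib3 and 50 for Chac1 put all 3 genes near the top of the 12879 log2 fold changes.

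Ddit4, the REDD1 gene, was next in size. It stood at 50.9 and 52.4 CPM with UO126, against 18.6 and 15.6 CPM with DMSO (1.59 ± 0.088, edgeR adjusted p = 7.1e-08). Sesn2 stood at 16.9 and 18.5 CPM with UO126, against 8.76 and 6.08 CPM with DMSO (1.25 ± 0.15, edgeR adjusted p = 5.1e-05). Both mTORC1 inhibitor genes were therefore above the DMSO libraries with either drug.

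Ddit3 stood at 78.3 and 84.0 CPM with UO126, against 40.1 and 38.1 CPM with DMSO (1.05 ± 0.072, edgeR adjusted p = 3.0e-07). Atf5 stood at 109 and 117 CPM with UO126, against 66.9 and 68.9 CPM with DMSO (0.74 ± 0.080, edgeR adjusted p = 2.2e-05). The smallest rises were again those of Ppp1r15a and Atf4. Ppp1r15a stood at 134 and 126 CPM with UO126, against 93.3 and 86.9 CPM with DMSO (0.53 ± 0.073, edgeR adjusted p = 1.6e-04). Atf4 stood at 581 and 578 CPM with UO126, against 413 and 421 CPM with DMSO (0.47 ± 0.056, edgeR adjusted p = 4.7e-05).

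**Figure D2:**
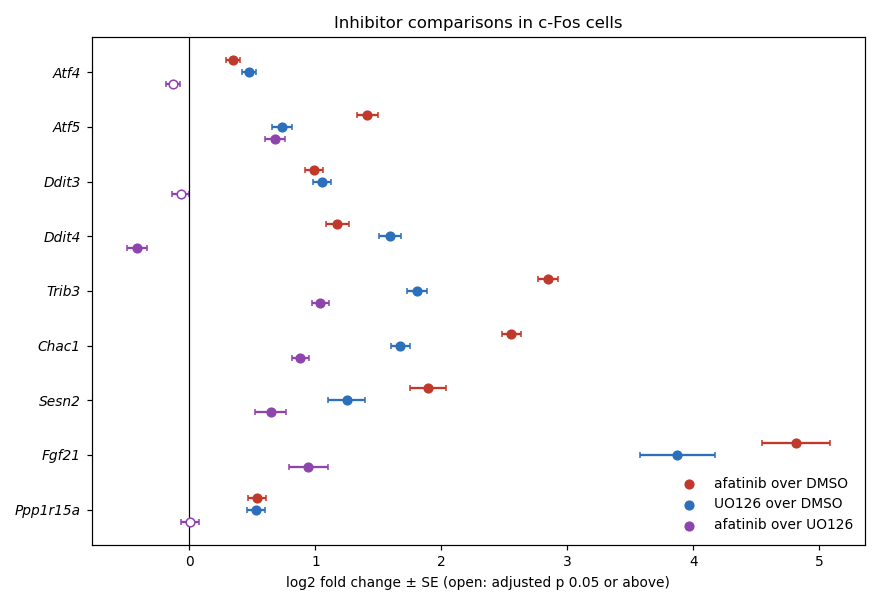
Log2 fold change ± SE of the 9 tested genes for afatinib over DMSO, UO126 over DMSO and afatinib over UO126 (8 libraries in one fit). Filled points were called and open points were not. Points for both drugs over DMSO lie right of 0 for each gene. Afatinib over UO126 lies right of 0 and filled for Atf5, Trib3, Chac1, Sesn2 and Fgf21, and left of 0 and filled for Ddit4.

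The direct comparison of afatinib with UO126 tests where the drugs differed, at their different doses. It split the genes into 3 sets. With afatinib 5 of the 9 tested genes were higher and 1 was lower than with UO126, while 7.14% of all genes tested were called higher, 7.14% lower and 14.3% in either direction. Trib3 was 2.06-fold higher with afatinib, at 114 ± 6.3 CPM against 55.3 ± 1.7 CPM with UO126 (log2 1.04 ± 0.069, edgeR adjusted p = 1.3e-06). Fgf21 was 1.92-fold higher, at 9.57 ± 1.3 CPM with afatinib and 4.97 ± 0.21 CPM with UO126 (0.94 ± 0.16, edgeR adjusted p = 0.0015). Chac1 was 1.84-fold higher, at 173 ± 13 CPM with afatinib and 94.0 ± 0.96 CPM with UO126 (0.88 ± 0.067, edgeR adjusted p = 4.1e-06). Atf5 was 1.60-fold higher, at 181 ± 21 CPM with afatinib and 113 ± 5.3 CPM with UO126 (0.68 ± 0.077, edgeR adjusted p = 1.0e-04). Sesn2 was 1.56-fold higher, at 27.7 ± 3.0 CPM with afatinib and 17.7 ± 1.2 CPM with UO126 (0.65 ± 0.12, edgeR adjusted p = 0.0043). For these 5 genes the order of the inhibitor and DMSO levels was afatinib, UO126, DMSO, and each step passed the test.

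Ddit4 went the other way. It was at 38.7 ± 0.85 CPM with afatinib and 51.7 ± 1.1 CPM with UO126, or -0.42 ± 0.080 on the log2 scale (edgeR adjusted p = 0.0042). The calls of Sesn2 and Ddit4 rested in part on 1 library. Without afatinib replicate 1 their log2 fold changes were 0.54 and -0.38, each at an edgeR adjusted p of 0.051. Over all alternatives the adjusted p ran from 1.7e-08 to 0.051 for Sesn2 and from 8.5e-05 to 0.051 for Ddit4.

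Ddit3, Ppp1r15a and Atf4 were not called between the drugs. The 95% interval of the log2 fold change ran from -0.22 to 0.08 for Ddit3 (edgeR adjusted p = 0.56) and from -0.15 to 0.16 for Ppp1r15a (edgeR adjusted p = 0.96). Their libraries overlapped. For Atf4 the afatinib libraries lay below those of UO126, at 529 ± 21 CPM with afatinib and 579 ± 2.3 CPM with UO126. Its log2 fold change was -0.13 with an unadjusted 95% interval of -0.25 to -0.01 (edgeR adjusted p = 0.14).

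The comparison of c-Fos cells with DMSO against empty-vector cells asks how the genes differed without inhibitor. The log2 fold changes of the called genes lay between -1.45 for Ddit4 and 0.31 for Atf4. Of the 9 tested genes 1 was called higher and 4 lower, while 21.5% of all genes tested were called higher, 20.7% lower and 42.2% in either direction. The median log2 fold change was -0.22 over the 9 genes and -0.01 over all genes. DMSO and the 6 h treatment are named for the c-Fos cells alone, so c-Fos, vehicle and treatment step cannot be told apart here.

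Ddit4 stood at 18.6 and 15.6 CPM in c-Fos cells, against 47.4 and 46.3 CPM in empty-vector cells. This fall of the REDD1 gene (log2 fold change -1.45 ± 0.088, edgeR adjusted p = 2.7e-08) ranked 261 of 12879 from the lowest. Atf5 was lower as well, at 66.9 and 68.9 CPM in c-Fos cells against 87.5 and 89.0 CPM in empty-vector cells (-0.38 ± 0.081, edgeR adjusted p = 0.0020). Atf4 was the gene called higher, with 413 and 421 CPM in c-Fos cells against 335 and 335 CPM in empty-vector cells (0.31 ± 0.057, edgeR adjusted p = 5.9e-04).

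Sesn2 stood at 8.76 and 6.08 CPM in c-Fos cells, against 10.7 and 10.9 CPM in empty-vector cells (-0.54 ± 0.16, edgeR adjusted p = 0.013). That call ended without DMSO replicate 2 (-0.30, edgeR adjusted p = 0.18) and without empty vector replicate 1 (0.065) or 2 (0.057), and the adjusted p ran from 1.2e-04 to 0.18 over all alternatives. Ddit3 stood at 40.1 and 38.1 CPM in c-Fos cells, against 44.6 and 46.3 CPM in empty-vector cells (-0.22 ± 0.073, edgeR adjusted p = 0.029). Its call ended without any one of the 4 libraries compared (adjusted p of 0.082 and 0.19 without DMSO replicate 1 or 2, and 0.11 and 0.16 without the empty-vector ones). It ended too with a replicate block (0.0504) and in the DESeq2 Wald test (0.10), in a range from 0.014 to 0.19.

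The remaining 4 tested genes were not called. Chac1 stood at 29.7 and 29.2 CPM in c-Fos cells and 25.9 and 25.2 CPM in empty-vector cells (0.20 ± 0.079, edgeR adjusted p = 0.054). It was called higher under 6 of 15 alternatives, which are listed under the processing, with adjusted p from 0.023 to 0.20. Trib3 stood at 15.6 and 16.1 CPM in c-Fos cells and 17.4 and 17.7 CPM in empty-vector cells (-0.14 ± 0.087, 95% interval -0.33 to 0.04, edgeR adjusted p = 0.20). Ppp1r15a was at 0.15 ± 0.074 (edgeR adjusted p = 0.12) and was called only without UO126 replicate 2 (0.037, range 0.037 to 0.51). Fgf21 had 8 and 3.5 counts in c-Fos cells and 17 and 11 counts in empty-vector cells (-0.93 ± 0.46, edgeR adjusted p = 0.12), and at such counts the interval was wide, from -1.91 to 0.05.

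The drug-treated c-Fos cells were also set against the empty-vector cells. In these comparisons c-Fos, drug, vehicle and treatment step cannot be told apart. With afatinib 8 of the 9 tested genes were higher and 1 lower than in empty-vector cells, beside 21.7% higher, 23.4% lower and 45.1% in either direction among all genes tested. With UO126 8 were higher and 0 lower, beside 18.3% higher, 19.4% lower and 37.7% in either direction among all genes. Chac1 reached 6.76-fold with afatinib (log2 2.76 ± 0.074, edgeR adjusted p = 1.9e-11) and 3.67-fold with UO126 (1.88 ± 0.074, edgeR adjusted p = 4.6e-10). Trib3 reached 6.50-fold with afatinib (edgeR adjusted p = 2.0e-11) and 3.16-fold with UO126 (edgeR adjusted p = 2.0e-09). Fgf21 reached 14.8-fold and 7.70-fold over empty-vector levels of 0.736 and 0.534 CPM. Sesn2 was 2.56-fold higher with afatinib and 1.64-fold higher with UO126 than in empty-vector cells, and Atf5 2.05-fold and 1.28-fold. Ddit3, Atf4 and Ppp1r15a lay between 1.58-fold for Atf4 with afatinib and 1.79-fold for Ddit3 with UO126. All of these passed the test (edgeR adjusted p of 0.0027 or below).

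Ddit4 was the exception in this set. With afatinib it stood at 38.1 and 39.3 CPM, still below the 47.4 and 46.3 CPM of the empty vector (-0.28 ± 0.080, edgeR adjusted p = 0.013). With UO126 it stood at 50.9 and 52.4 CPM, and the log2 fold change of 0.14 ± 0.079 did not pass the test (edgeR adjusted p = 0.18, 95% interval -0.03 to 0.31). The fall with afatinib lost its call when any one of the 4 libraries was left out, with adjusted p of 0.12 and 0.066 for afatinib replicates 1 and 2 and of 0.12 and 0.070 for the empty-vector replicates, in a range from 0.0055 to 0.12. Ddit4 was thus lower in DMSO-treated c-Fos cells than in empty-vector cells, and higher with either drug than with DMSO. Trib3 and Chac1, not called between DMSO-treated c-Fos cells and empty-vector cells, stood above the empty vector with both drugs.

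**Figure D3:**
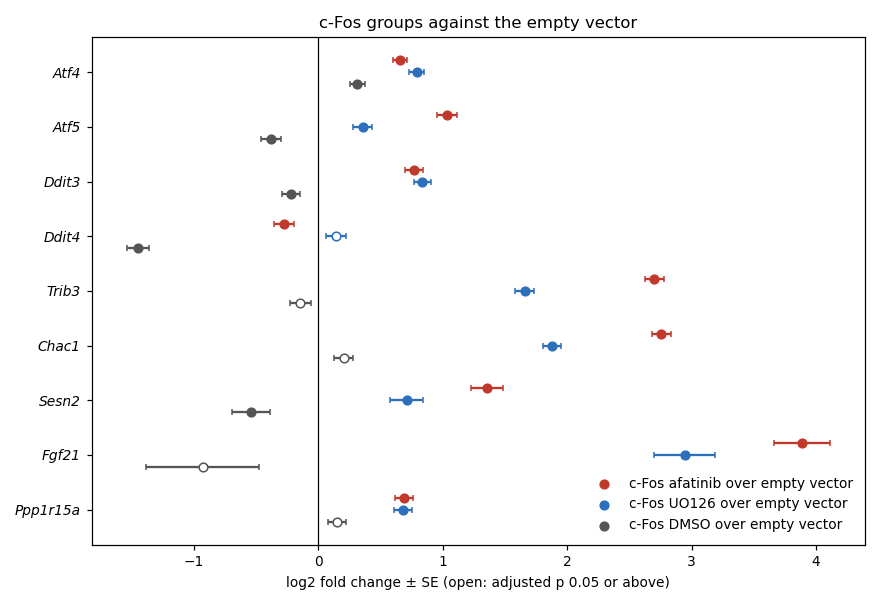
Log2 fold change ± SE of the 9 tested genes in c-Fos cells with afatinib, UO126 or DMSO, each over empty-vector cells. Filled points were called and open points were not. The DMSO points lie between -1.45 for Ddit4 and 0.31 for Atf4, while the drug points reach 3.89 for Fgf21 with afatinib.

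Levels can be set between genes only per length, so CPM were divided by the transcript length in kilobases that the deposited table gives. On this scale Atf4 was the most abundant of the 10 genes in every group, at 307 ± 12 CPM per kilobase with afatinib, 336 ± 1.4 with UO126, 242 ± 3.3 with DMSO and 194 ± 0.26 with the empty vector. The next place was held by Ddit3 except with afatinib. With afatinib Chac1 stood at 111 ± 8.2 CPM per kilobase, Atf5 at 99.8 ± 11 and Ddit3 at 89.5 ± 3.2, each neighbour within the spread of the next, followed by Ppp1r15a at 56.2 ± 3.2 and Trib3 at 55.6 ± 3.1, which did not differ beyond their spread, and by Ddit4 at 23.0 ± 0.51. With UO126 Ddit3 was next at 93.8 ± 4.6 CPM per kilobase, ahead of Atf5 at 62.4 ± 2.9, Chac1 at 60.1 ± 0.61 and Ppp1r15a at 55.8 ± 2.3, and Ddit4 at 30.7 ± 0.63 stood above Trib3 at 27.0 ± 0.84. Atf5 and Chac1 were within their spread. With DMSO and with the empty vector Ddit3 also came after Atf4, at 45.2 ± 1.6 and 52.5 ± 1.4 CPM per kilobase. Trib3 was seventh there, at 7.75 ± 0.20 CPM per kilobase with DMSO and 8.56 ± 0.11 with the empty vector, and Chac1 stood at 18.8 ± 0.23 and 16.4 ± 0.31. Sesn2, Fgf21 and Gdf15 were lowest throughout, with Sesn2 at 10.5 ± 1.1 and Fgf21 at 10.2 ± 1.4 CPM per kilobase with afatinib, within their spread.

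Across the 8 libraries the tested genes fell into related profiles, given here as Pearson correlations of log2 CPM without a test, since the libraries share groups. Trib3 and Chac1 had the closest profiles (r = 0.993), followed by Trib3 and Fgf21 (r = 0.988) and Chac1 and Fgf21 (r = 0.981). Atf5 was closest to Sesn2 (r = 0.969) and Atf4 to Ppp1r15a (r = 0.955). Ddit4 stood apart, with r between 0.217 with Atf4 and 0.663 with Ddit3. Atf4 and its paralog Atf5 had r = 0.621.

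For each tested gene the most similar profile was sought among 1064 other genes with at least 5 CPM and a range of at least 1 on the log2 scale. It was Gadd45a for Trib3 (r = 0.998), a stress gene of the growth arrest family, and Sqstm1 for Chac1 (r = 0.998), which encodes an autophagy receptor. It was Slc2a1, the glucose transporter gene, for Atf5 (r = 0.996) and Hdac11, a histone deacetylase gene, for Fgf21 (r = 0.996). Slc2a1 averaged 546 CPM with afatinib, 275 CPM with UO126, 123 CPM with DMSO and 182 CPM with the empty vector. For the others it was Spon2 for Atf4 (r = 0.994), Srgap1 for Sesn2 (r = 0.993), Ralgps1 for Ddit3 (r = 0.992), Rps6ka2 for Ppp1r15a (r = 0.990) and Mab21l3 for Ddit4 (r = 0.989). Each is the highest value among 1064 candidates over 8 libraries that share groups, so no test is given.

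Other genes of the pathway were counted from lists of known ATF4 targets and of neighbouring stress pathways. The lists were chosen with earlier results of these data known, so their counts are not independent support. With afatinib against DMSO, 9 of 12 amino acid synthesis genes were higher and 1 lower, with a median log2 fold change of 0.53. Gpt2, an alanine aminotransferase gene, stood at 136 ± 7.9 CPM with afatinib and 25.1 ± 0.89 CPM with DMSO (2.44 ± 0.074, edgeR adjusted p = 1.1e-10). Of 10 amino acid transporter genes 7 were higher and 1 lower, led by the glycine transporter gene Slc6a9 at 154 ± 17 CPM with afatinib and 29.6 ± 0.35 CPM with DMSO (2.38 ± 0.086, edgeR adjusted p = 6.1e-10). Of 17 genes of tRNA synthetases, which charge tRNAs with amino acids, 11 were higher and 4 lower, with Aars for alanine at 1.03 ± 0.063 (edgeR adjusted p = 4.5e-08). Of 11 other ATF4 targets 9 were higher and 0 lower, among them Vldlr, a lipoprotein receptor gene, at 1.66 ± 0.070 (edgeR adjusted p = 2.1e-09). Of 10 bZIP partners and co-induced factors 7 were higher and 1 lower. Atf3, a bZIP factor gene, was at 1.33 ± 0.095 (edgeR adjusted p = 1.8e-07) and Cebpb, a binding partner of ATF4, at 1.11 ± 0.080 (edgeR adjusted p = 2.1e-07), whereas the AP-1 subunit gene Fosl1 was lower at -2.01 ± 0.10 (edgeR adjusted p = 9.5e-09). The shares called among all genes, 21.2% higher and 21.5% lower, are the background for these counts. The 1 lower synthesis gene was not called without DMSO replicate 2 or afatinib replicate 1. The count of lower transporters changed under 8 of 15 alternatives and that of lower partner factors under 5 of 15.

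Genes of the neighbouring stress pathways were counted as well. In the ATF6 and XBP1 arms of the unfolded protein response, which raise chaperones of the endoplasmic reticulum, 3 of 18 genes were higher and 9 lower with afatinib than with DMSO (median log2 fold change -0.14), beside 21.2% higher and 21.5% lower among all genes, so that the share higher lay near the background. The co-chaperone gene Sdf2l1 was lower at -0.50 ± 0.084 and the secreted ER stress factor gene Manf at -0.44 ± 0.071, while Ern1, the sensor IRE1, was higher at 0.62 ± 0.11 (edgeR adjusted p = 3.5e-04, 2.4e-04 and 6.0e-04). That count of lower genes was 4 without DMSO replicate 2 and 3 without afatinib replicate 2. With UO126 against DMSO 6 of the 18 were higher and 0 lower, beside 13.9% and 14.7% of all genes, and 3 were higher without DMSO replicate 2. Xbp1 was at 0.52 ± 0.064 (edgeR adjusted p = 5.4e-05). Afatinib against UO126 gave 1 higher and 10 lower, beside 7.14% of all genes each way, or 0 higher and 6 lower without afatinib replicate 2. The chaperone gene Hspa5 (BiP) stood at 1195 ± 30 CPM with afatinib and 1765 ± 29 CPM with UO126 (-0.56 ± 0.055, edgeR adjusted p = 2.8e-05). Trib3, Chac1 and Fgf21 were higher with afatinib than with UO126, whereas Hspa5 was lower. Xbp1 stood at 106 ± 1.5 CPM with afatinib and 155 ± 3.8 CPM with UO126. Ern1 of the same list went the other way, at 23.1 ± 1.0 CPM with afatinib and 17.0 ± 2.4 CPM with UO126. Against DMSO, UO126 raised Hspa5 too (0.32 ± 0.055, edgeR adjusted p = 8.5e-04), and Xbp1 was not called with afatinib (-0.03 ± 0.064, edgeR adjusted p = 0.77).

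The eIF2 machinery itself was read at the level of messenger RNA. With afatinib 3 of 18 genes were higher and 8 lower than with DMSO (median log2 fold change -0.07), and the lower count was between 3 and 5 without empty vector replicate 2 or any one of the DMSO and afatinib replicates, and 3 in the DESeq2 Wald test. Eif2ak3, the kinase PERK that senses ER stress, was at 0.64 ± 0.072 with afatinib (edgeR adjusted p = 1.0e-05) and at 0.55 ± 0.072 with UO126 (edgeR adjusted p = 9.9e-05). Eif2s1, the subunit that is phosphorylated, was lower with afatinib at -0.56 ± 0.094 and with UO126 at -0.36 ± 0.094 (edgeR adjusted p = 4.5e-04 and 0.013). With UO126 3 of the 18 genes were higher and 1 lower, or 0 lower without DMSO replicate 2 or UO126 replicate 2 and 2 lower without UO126 replicate 1. Among all genes 21.2% were higher and 21.5% lower with afatinib, and 13.9% higher and 14.7% lower with UO126, so the share of eIF2 genes higher was near or below the background with both drugs. Of 10 genes of mitochondrial stress and proteostasis 1 was higher and 7 lower with afatinib, and 0 were higher and 3 lower with UO126. Each afatinib count changed under 1 of 15 alternatives. The chaperonin gene Hspd1 was lower with afatinib at -0.58 ± 0.066 and with UO126 at -0.35 ± 0.066 (edgeR adjusted p = 1.3e-05 and 0.0016).

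Among 14 other mTORC1 regulators 9 were higher and 1 lower with afatinib than with DMSO (median log2 fold change 0.32), and 7 were higher and 1 lower with UO126. The background was 21.2% higher and 21.5% lower with afatinib, and 13.9% higher and 14.7% lower with UO126. The 1 lower gene with afatinib was not called under 4 of 15 alternatives. The UO126 count of higher genes was 4 without DMSO replicate 1 and 1 without DMSO replicate 2. Sesn3, a sestrin gene like Sesn2, was at 0.97 ± 0.109 with afatinib (edgeR adjusted p = 1.1e-05). Flcn and Fnip1, partner genes of lysosomal amino acid signalling to mTORC1, were at 0.97 ± 0.11 and 1.02 ± 0.16 with afatinib (edgeR adjusted p = 1.0e-05 and 0.0013).

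The remaining UO126 counts against DMSO were 5 higher and 0 lower of 12 amino acid synthesis genes, 5 and 1 of 10 transporters, 10 and 2 of 17 tRNA synthetases, 9 and 0 of 11 other ATF4 targets and 7 and 2 of 10 partner factors. The background was 13.9% higher and 14.7% lower. The 2 lower synthetases changed in number under 11 of 15 alternatives and were 0 without DMSO replicate 2, where 1 partner factor was lower, and 2 transporters were lower without UO126 replicate 2. Gpt2 was at 1.56 ± 0.074 and Slc6a9 at 1.41 ± 0.086 (edgeR adjusted p = 2.4e-08 and 1.5e-07). Between the drugs, 8 of the 12 amino acid synthesis genes were higher with afatinib than with UO126 and 1 lower, and 6 of 10 transporters were higher and 1 lower, beside 7.14% of all genes each way. With only the 4 libraries compared 5 synthesis genes were higher. The count of higher synthesis genes changed under 2 of 15 alternatives and that of higher transporters under 1 of 15. Gpt2 was at 0.88 ± 0.067 (edgeR adjusted p = 4.1e-06) and Slc6a9 at 0.97 ± 0.078 (edgeR adjusted p = 6.3e-06). Of 17 tRNA synthetases 5 were higher and 3 lower, or 3 higher with only the 4 libraries compared. Each of these counts changed under 2 of 15 alternatives. Of 11 other ATF4 targets 5 were higher and 1 lower. The single lower genes among synthesis genes, transporters and other targets were not called with either afatinib replicate left out. In all, the lower synthesis gene was lost under 3 of 15 alternatives and the lower transporter under 5 of 15.

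**Figure D4:**
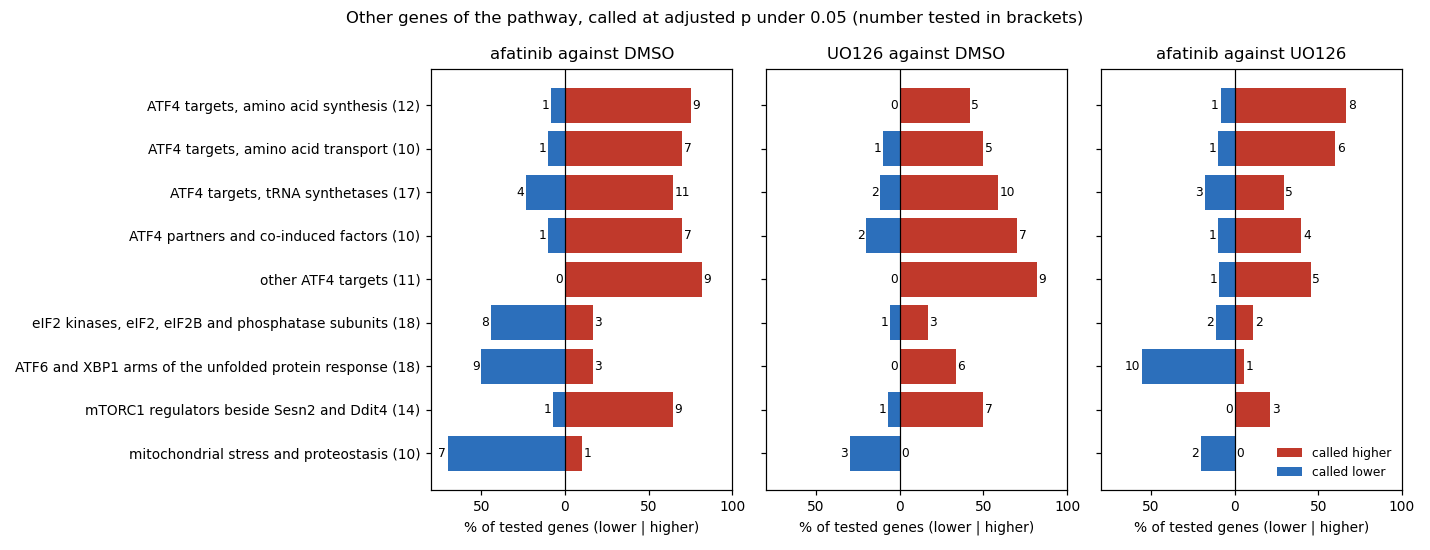
Share of tested genes called higher (right of 0) and lower (left of 0) in 9 pathway lists, in percent, with the number of genes at each bar. Panels show afatinib against DMSO, UO126 against DMSO and afatinib against UO126. The lists of ATF4 targets lean to the right in the first panels, with 9 of 12 amino acid synthesis genes higher with afatinib, and the unfolded protein response list leans to the left in the last panel, with 10 of 18 lower.

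The same lists were counted between DMSO-treated c-Fos cells and empty-vector cells. Of 10 partner factors 1 was higher and 4 lower, and of 18 eIF2 genes 4 were higher and 2 lower. Those eIF2 counts changed under 3 and 8 of 15 alternatives. Of 12 amino acid synthesis genes 2 were higher and 5 lower, of 10 transporters 1 and 4, and of 17 tRNA synthetases 8 and 1. Of 11 other ATF4 targets 2 were higher and 2 lower, or 4 higher with only the 4 libraries compared. That count of higher targets changed under 3 of 15 alternatives. Among all genes 21.5% were higher and 20.7% lower. Of 18 genes of the ATF6 and XBP1 arms 8 were higher and 0 lower, and of 10 mitochondrial stress genes 3 were higher and 0 lower. The count of lower genes in the ATF6 and XBP1 arms changed under 3 of 15 alternatives. The 8 higher synthetases were 5 with either empty-vector replicate left out and 3 without DMSO replicate 2. The count of lower synthesis genes changed under 3 of 15 alternatives and that of higher ones under 5 of 15. The 1 lower synthetase was lost under 7 of 15 alternatives, and the count of higher transporters changed under 1 of 15. Slc6a9 was lower at -0.91 ± 0.087 (edgeR adjusted p = 2.1e-06), Vldlr at -1.54 ± 0.070 (edgeR adjusted p = 1.7e-09) and Gpt2 at -0.46 ± 0.077 (edgeR adjusted p = 3.1e-04). Of 14 mTORC1 regulators 1 was higher and 5 lower. The higher count changed under 3 of 15 alternatives and the lower count under 1 of 15. The higher one was Deptor, an inhibitor of mTOR, at 2.07 ± 0.16 (edgeR adjusted p = 3.7e-07).

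Of the paralogs of Trib3 and Chac1, 0 of 3 were called higher with either drug and 1 was lower. Trib2 stood at 2.09 ± 0.41 CPM with afatinib, 3.68 ± 0.020 CPM with UO126 and 11.2 ± 0.56 CPM with DMSO, and fell with afatinib (-2.42 ± 0.18, edgeR adjusted p = 2.9e-07) and with UO126 (-1.61 ± 0.16, edgeR adjusted p = 1.2e-05). Trib1 was at -0.02 ± 0.070 with afatinib and -0.06 ± 0.070 with UO126 (edgeR adjusted p = 0.86 and 0.59). Chac2, the paralog of Chac1, was at 0.31 ± 0.15 and 0.33 ± 0.15 (edgeR adjusted p = 0.12 and 0.12). The count of paralogs called higher changed under 4 of 15 alternatives with afatinib and under 2 of 15 with UO126. Of 7 receptor genes for FGF21 and GDF15 only 3, all FGF receptor genes, had enough counts to be tested. With either drug 2 of these were higher and 1 lower than with DMSO. Among all genes 21.2% were higher and 21.5% lower with afatinib, and 13.9% and 14.7% with UO126. Fgfr2 stood at 357 ± 12 CPM with afatinib, 317 ± 1.2 CPM with UO126 and 186 ± 8.9 CPM with DMSO, at log2 fold changes over DMSO of 0.94 ± 0.062 and 0.77 ± 0.062 (edgeR adjusted p = 9.2e-08 and 1.4e-06). Fgfr3 was at 0.93 ± 0.13 with afatinib and 0.44 ± 0.13 with UO126 (edgeR adjusted p = 8.1e-05 and 0.023). Fgfr1 was lower, at -0.40 ± 0.061 with afatinib and -0.71 ± 0.061 with UO126 (edgeR adjusted p = 1.5e-04 and 2.9e-06). With UO126 the count of higher receptor genes changed under 3 of 15 alternatives.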

How the data were processed

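RNA of 8 libraries was sequenced. TopHat and then HOMER were used by the authors, per the series design text. Per the submitters' processing notes the build was mm9, and DESeq2 is listed without a role. The deposited values are expected counts per gene symbol, all multiples of 0.5 and not normalized, with 17901974 to 23126048 per library. The TruSeq RNA kit named in the labels' protocols does not mark strand. In GENCODE M21 exons of Atf5 overlap Nup62 and Il4i1 by 82 bases, those of Ddit3 overlap Mars by 68 and those of Ppp1r15a overlap Tulp2 by 12, on the opposite strand, so such reads cannot be told apart. No other transcript there matched a member over 100 bases at 95% identity. The deposited transcript length, a column of another unit, was used only for levels per kilobase.

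Of 24909 entries 26 with symbols turned into dates were left out. Counts were rounded and fitted in R 4.3.3 with edgeR 4.0.16 (robust quasi-likelihood, 1 coefficient per group, 4 residual degrees of freedom, minimum count 10 and total 15 in the low-count filter, 12879 genes). Errors of log2 fold changes come from the F statistic. Alternatives were DESeq2 1.42.0 size factors or its Wald test, no filter, at least 5 CPM in at least 2 libraries, only the 4 libraries compared, a replicate block, omission of Rn45s and omission of each library. Replicates of a group differed beyond counting noise (chi-square per degree of freedom 4.85 to 25.1). The members, lists and tests were chosen with earlier results of these data known. Named beside the members are Fos, up to 3 called genes per list and comparison, and the most similar gene per member. Promoter sequences are from RefSeq (GRCm38.p6), in which all 10 symbols matched, with 12 windows, and no coordinate of the counting is known.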

Additional observations from a re-analysis of the deposited data

How the results depend on the processing

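All 9 tested genes stayed higher with afatinib and with UO126 than with DMSO under all 15 alternatives. Of 810 recomputed log2 fold changes, 788 kept their side of the threshold, 15 lost a call, 7 gained one and 0 reversed a call. Ppp1r15a between the drugs, not called, ran from -0.04 to 0.08 and so changed sign. Between DMSO-treated c-Fos cells and empty-vector cells, 2 genes were higher in place of 1 with DESeq2 size factors and with only the 4 libraries compared. Leaving out 1 library gave 1 to 3 higher and 2 to 4 lower there, 4 to 5 higher and 0 to 1 lower for afatinib against UO126, and 0 to 1 lower for afatinib against the empty vector. Chac1 passed in c-Fos against the empty vector with size factors (adjusted p = 0.040), with only the 4 libraries (0.036) and without afatinib replicate 1 (0.048) or 2 (0.048) or UO126 replicate 1 (0.040) or 2 (0.023). Over all genes, afatinib against UO126 called 481 higher and 505 lower with only the 4 libraries, against 919 and 920 in all 8, and leaving out 1 library gave 391 to 1316 higher and 307 to 1102 lower. With 1 library left out, the lower counts against DMSO were 1692 to 3205 for afatinib (2772 in all 8) and 968 to 2063 for UO126 (1893), which had 913 to 2051 higher (1788). Against the empty vector the lower counts were 1953 to 3232 with afatinib (3017), 1476 to 2452 with UO126 (2502) and 1661 to 3085 with DMSO (2662). The lowest were reached without DMSO replicate 2, afatinib replicate 2 or empty vector replicate 1. A group left with 1 library is assumed to vary like the others. Same-numbered replicates are not shown to be paired: their deviations correlated between -0.30 and 0.15. With the replicate block Ddit3 lost its call in c-Fos against the empty vector (-0.22, adjusted p = 0.0504), and 9 genes stayed higher with each drug against DMSO. The counting depth limits Gdf15 and Fgf21 without inhibitor.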
